A study of Rattus norvegicus with 12 samples.

Results

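The comparison described here sets INS-1E cells that were preconditioned with a low concentration of IL-1β and then challenged with cytokines (IL-1βlow + CYT) against INS-1E cells that received the cytokine challenge alone (CYT). INS-1E cells are a rat insulinoma line that keeps a β-cell phenotype. The comparison was chosen by library title, and it holds 6 of the 12 RNA-seq libraries of the series, 3 in each group, and 14324 of the 34034 genes in the count table, namely those above 1 CPM (counts scaled to a common library total) in at least 2 of the 12 libraries. IL-1βlow + CYT cells received IL-1β at 10 pg/ml for 72 h, and after a change of medium IL-1β at 100 pg/ml with IFN-γ at 5 ng/ml for 16 h. CYT cells received only the latter mixture for 16 h. The other 6 libraries, 3 untreated and 3 with IL-1βlow alone, are given where a level needs a reference. All 4 groups shared the wild-type line and the culture medium, and the labels call the 3 libraries of a group biological replicates. As a model the design is limited to 1 tumour-derived clonal line without other islet cells.

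IL-1β binds its receptor on β-cells and activates NF-κB, which induces chemokines and inducible nitric oxide synthase. IFN-γ acts through JAK kinases and STAT factors, which induce interferon regulatory factors, antiviral proteins and the antigen presentation machinery. In β-cells the combination is known to cause nitric oxide production, activation of the integrated stress response through ATF4, loss of mature β-cell transcripts and apoptosis. The comparison asks how the transcriptional response to this challenge differs in cells that had met a small amount of IL-1β beforehand.

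Libraries held between 16648591 and 20246806 counts assigned to genes, with 17744203 to 19488861 in CYT. The ribosomal precursor Rn45s took 7.87% to 9.36% of counts in CYT and 9.96% to 11.1% in IL-1βlow + CYT, and mitochondrially encoded genes took 2.97% to 4.60% and 4.24% to 5.79%. The summed level of 8 β-cell markers was 11076 to 11318 CPM in CYT and 16540 to 21059 CPM in IL-1βlow + CYT, against 33866 to 40226 CPM in untreated cells. Markers of other islet endocrine cells summed to 25.4 to 64.9 CPM in CYT and 74.5 to 152 CPM in IL-1βlow + CYT, most of it glucagon (Gcg), with Irx2 and Hhex at 0 counts. Leukocyte markers summed to 2.27 to 3.48 CPM in CYT and 4.50 to 5.77 CPM in IL-1βlow + CYT, endothelial markers to 3.32 to 4.84 and 6.63 to 9.10 CPM, and fibroblast markers to 6.30 to 7.31 and 9.70 to 11.9 CPM. Exocrine markers stayed at or below 0.233 CPM. Many of these markers were too low to enter the test given next. Of those tested, 2 of 8 β-cell, 1 of 2 other endocrine, 1 of 3 leukocyte and 1 of 2 fibroblast markers were higher. Among all genes tested 6.54% were higher. Ptprc, Itgam, Cd14, Tek, Emcn, Dcn, Lum, Cpa1 and Prss1 were at 0 in all 6. Other markers of the same lists had counts. Csf1r was at 0.0511 to 0.272 CPM in CYT and 1.25 to 1.59 CPM in IL-1βlow + CYT. Col1a2 was at 0.175 to 0.326 and 0.773 to 1.54 CPM, and Vwf at 3.32 to 4.78 and 6.32 to 8.80 CPM. For Cd68 and Col1a1 the groups overlapped. The part of these shifts in the results below was not tested.

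Genes were called passing when the Benjamini-Hochberg adjusted p of edgeR's quasi-likelihood test lay under 0.01 and the log2 fold change beyond 1 in either direction. On this definition 1785 genes differed, which is 12.5% of those tested. The genes higher in IL-1βlow + CYT made up 6.54% of all genes tested (937) and the genes lower 5.92% (848). Their median log2 fold changes were 1.42 and -1.43, and the median standard error (SE) of a passing gene was 0.20. The middle log2 fold change (median) of all genes tested was 0.02. With no minimum on fold, 17.1% of genes were higher and 19.2% lower at an adjusted p under 0.01. The 3 libraries of one group did not overlap the 3 of the other for 54.4% of all genes tested, 26.8% higher and 27.6% lower in IL-1βlow + CYT. In bulk RNA, fewer cells that express a gene and less of its RNA per cell cannot be told apart.

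**Figure D1:**
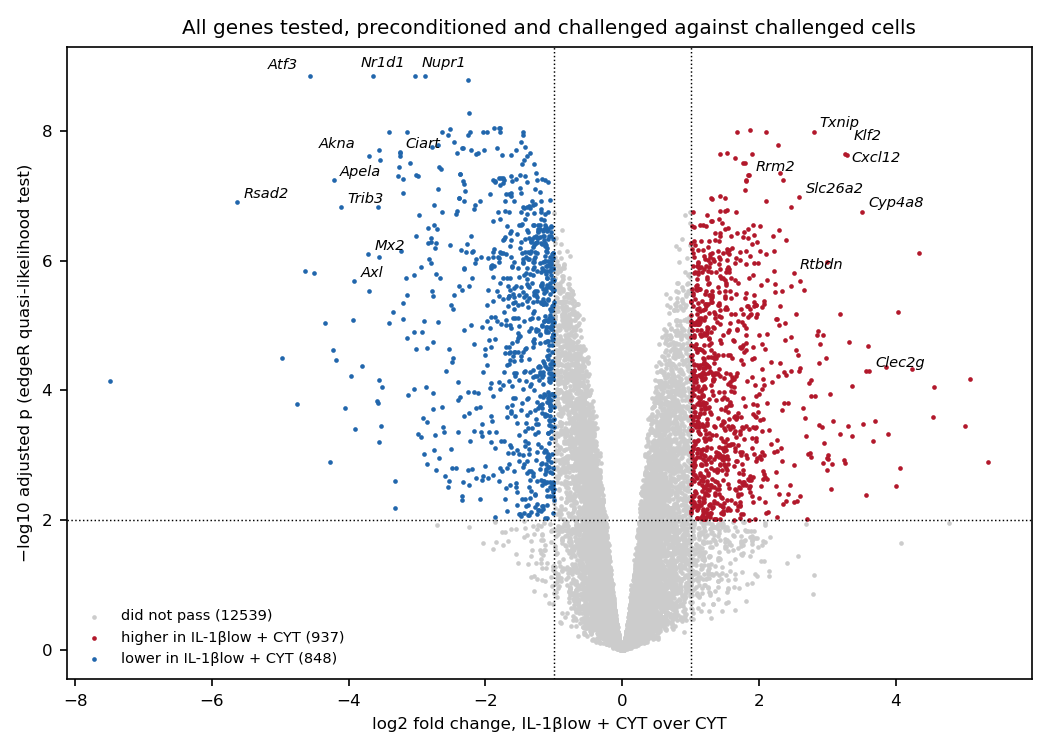
Each point is 1 of the 14324 genes tested, with the log2 fold change of IL-1βlow + CYT over CYT on the x axis and −log10 of the adjusted p on the y axis. Dotted lines mark the thresholds, red points are the 937 genes higher and blue points the 848 genes lower in IL-1βlow + CYT, and Rsad2 at -5.63 and Atf3 at -4.57 lie far to the left. The point furthest left is Zbp1, which had no counts in IL-1βlow + CYT, so that its position depends on the prior count of the fit.

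The 848 lower genes took 7.41% ± 0.604 of all CPM in CYT, 2.79% ± 0.166 in IL-1βlow + CYT and 2.15% ± 0.0878 in untreated cells (mean ± SD, n = 3). The 937 higher genes took 1.64% ± 0.227 in CYT, 4.15% ± 0.183 in IL-1βlow + CYT and 4.37% ± 0.0870 in untreated cells. These shares describe genes chosen by the same contrast. Among the genes below a mean of 6.35 CPM 13.7% were higher and 6.48% lower, whereas among those above a mean of 63.3 CPM 3.13% were higher and 5.59% lower.

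Members of 34 gene lists were compared by their list medians. Antigen presentation by MHC class II, the interferon-inducible GTPases, ATF4 targets and clock genes lay at the low end, and mitosis, islet transcription factors and DNA replication at the high end. The lists were drawn up with earlier results of these data known and receive no test of their own. Counts of members are to be read against all genes tested, of which 6.54% passed higher and 5.92% lower. With no fold minimum these shares were 17.1% and 19.2%, and without overlap of the groups 26.8% and 27.6%.

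**Figure D2:**
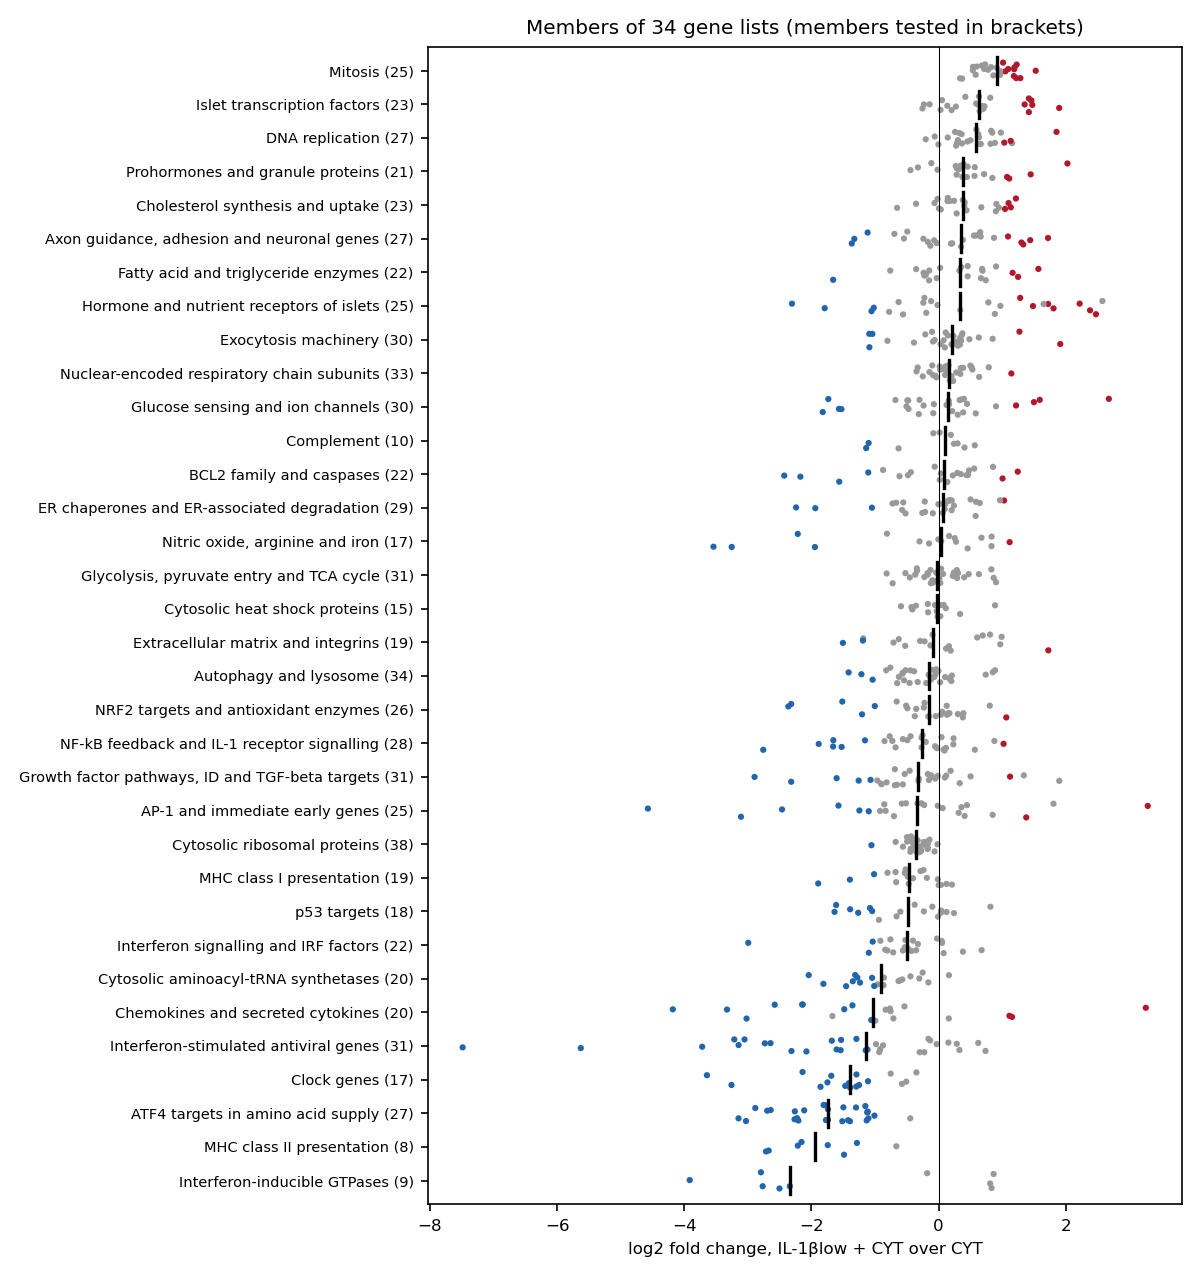
The x axis gives the log2 fold change of IL-1βlow + CYT over CYT for each tested member (point) of each list (row), and black bars give the list medians, from 0.91 for mitosis to -2.34 for interferon-inducible GTPases. Red points passed higher, blue points passed lower and grey points did not pass; Zbp1 and Gbp4 are drawn at their fitted values although IL-1βlow + CYT was at the counting floor.

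The largest falls at a mean above 4 CPM joined antiviral, stress and developmental genes. Rsad2, which encodes the antiviral enzyme viperin, was at 44.4, 84.4 and 152 CPM in CYT and at 1.16, 1.99 and 2.50 CPM in IL-1βlow + CYT (log2 fold change -5.63 ± 0.40 SE, adjusted p = 1.25e-07). Atf3, a stress-induced repressor of the ATF family, was at 58.5, 74.5 and 62.7 CPM in CYT and at 2.43, 2.69 and 3.09 CPM in IL-1βlow + CYT (-4.57 ± 0.18, adjusted p = 1.43e-09). The IL-1βlow + CYT libraries for Atf3 lay about the untreated mean of 2.87 CPM, and the CYT libraries for Rsad2 spread more than 3-fold. Apela, a peptide ligand of the apelin receptor, averaged 23.8 ± 4.22 CPM in CYT and 1.26 ± 0.561 CPM in IL-1βlow + CYT. Axl, a receptor tyrosine kinase, averaged 8.33 ± 3.38 and 0.546 ± 0.0936 CPM. Akna, a transcription factor with an AT-hook, averaged 101 ± 12.2 and 7.71 ± 3.07 CPM. Rarb, a retinoic acid receptor, averaged 25.5 ± 3.67 and 2.12 ± 0.923 CPM, and the carnitine transporter gene Slc22a21 50.4 ± 9.77 and 4.26 ± 1.06 CPM. All of these were below 2 CPM in untreated cells except Atf3 and Slc22a21, which was at 4.0 CPM there. In none of these genes did the groups overlap, which was a condition for naming them.

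The largest rises were of a different kind. Txnip, which encodes the thioredoxin-interacting protein and responds to glucose in β-cells, was at 28.6, 31.0 and 34.8 CPM in CYT and at 263, 229 and 166 CPM in IL-1βlow + CYT (2.80 ± 0.15, adjusted p = 1.03e-08). Klf2, a Krüppel-like factor, was at 3.59, 3.96 and 2.96 CPM and at 41.5, 35.2 and 26.0 CPM (3.29 ± 0.19, adjusted p = 2.34e-08). Cxcl12, a chemokine made by β-cells, was at 2.66, 2.27 and 1.89 CPM and at 26.3, 21.0 and 18.1 CPM (3.26 ± 0.19, adjusted p = 2.28e-08). For Txnip and Klf2 the untreated means, 170 and 48.3 CPM, were on the side of the preconditioned cells. For Cxcl12 the IL-1βlow + CYT libraries lay above untreated cells (3.77 CPM) and above IL-1βlow alone (12.7 CPM). Cyp4a8, a fatty acid hydroxylase, averaged 7.23 ± 3.15 CPM in CYT and 82.6 ± 19.4 CPM in IL-1βlow + CYT, and the sulfate transporter Slc26a2 15.7 ± 3.08 and 94.6 ± 15.0 CPM. St8sia2, which adds polysialic acid to NCAM, averaged 8.29 ± 2.37 and 50.2 ± 11.6 CPM, and the glutamate receptor subunit Grin3b 1.75 ± 0.993 and 10.2 ± 1.61 CPM. Clec2g, Wdr86 and Rtbdn complete the 10 largest, with log2 fold changes of 3.61 ± 0.51, 2.66 ± 0.27 and 2.51 ± 0.24.

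**Figure D3:**
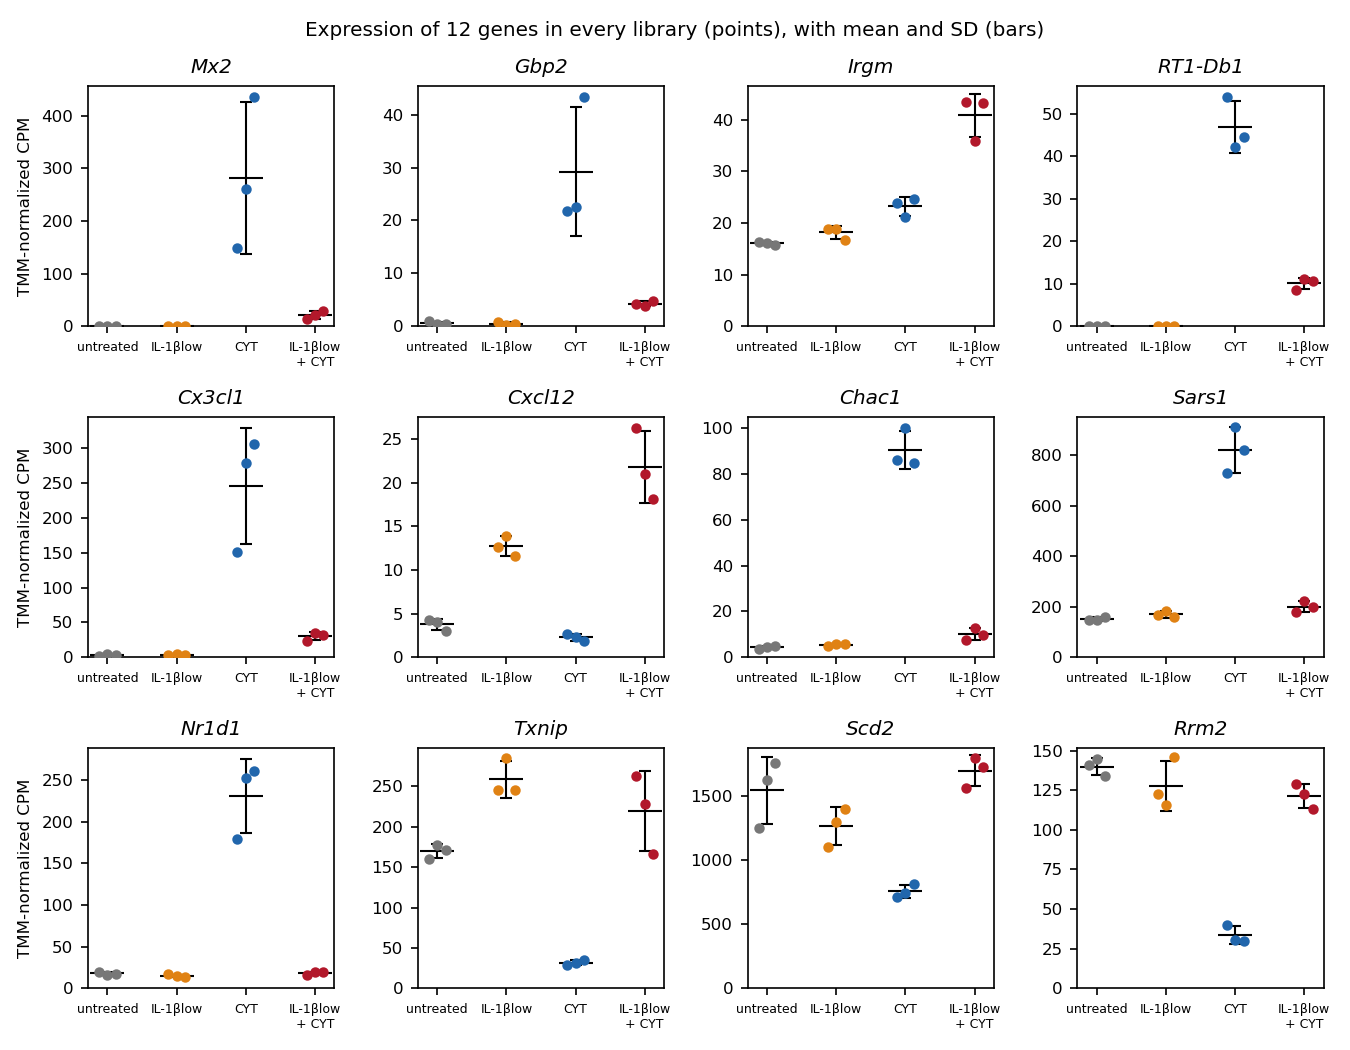
The y axes give TMM-normalized CPM from 0 in every library (points) of the 4 groups on the x axis, with the mean (wide bar) and SD (error bar, n = 3), for 12 genes named in the report. In Mx2, Gbp2, RT1-Db1, Cx3cl1, Chac1, Sars1 and Nr1d1 the 3 CYT libraries stand above the IL-1βlow + CYT libraries; in Irgm, Cxcl12, Txnip, Scd2 and Rrm2 they stand below them.

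Interferon-stimulated antiviral genes were lower in preconditioned cells, but not uniformly. Of 31 tested members 17 passed lower and none higher, with a median log2 fold change of -1.15. Mx2, a dynamin-like GTPase with antiviral activity, was at 149, 261 and 435 CPM in CYT and at 13.7, 21.3 and 29.1 CPM in IL-1βlow + CYT (-3.72 ± 0.33, adjusted p = 7.85e-07). Its relative Mx1 averaged 100 ± 48.3 and 10.8 ± 4.18 CPM. Zbp1, a sensor of Z-form nucleic acids, was at 1.03, 1.17 and 1.58 CPM in CYT and without a count in the 3 IL-1βlow + CYT libraries, which makes it at least 7.42-fold lower against a floor of 3 counts per library. The list median was the same with Zbp1 set at that bound. Within CYT the 3 libraries were not alike: Rsad2, Mx1 and Mx2 were lowest in replicate 1 and highest in replicate 3. Rsad2 and Mx2 had the same order of replicates in IL-1βlow + CYT. All 3 IL-1βlow + CYT libraries stayed below the lowest CYT library for these genes.

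Of 22 genes for interferon receptors, JAK kinases, STAT factors, interferon regulatory factors and SOCS proteins, 3 passed lower and none higher, with a median of -0.50. Irf7, the master regulator of type I interferon genes, was at 68.7, 114 and 132 CPM in CYT and at 11.7, 14.6 and 13.1 CPM in IL-1βlow + CYT (-2.99 ± 0.19, adjusted p = 4.92e-08). Irf1, an interferon-induced activator, averaged 273 ± 73.8 and 128 ± 5.52 CPM (-1.10 ± 0.15), and Irf5 14.5 ± 1.83 and 7.09 ± 0.570 CPM (-1.04 ± 0.17). The calls of Irf1 and Irf5 lay near the threshold. Without CYT replicate 1 the list held 6 lower genes, without CYT replicate 3 Irf1 was at -0.93, and without IL-1βlow + CYT replicate 1 or CYT replicate 2 Irf5 was at -0.99 or -0.93.

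The interferon-inducible GTPases split by family. These proteins attack vacuoles that hold pathogens, and they comprise the guanylate-binding proteins (Gbp genes) and the smaller immunity-related GTPases (Irgm, Irgm2, Igtp and Ifi47, named here after their values were seen). All 5 tested Gbp genes passed lower, whereas none of the 4 immunity-related GTPases passed and 3 of those had positive log2 fold changes. Gbp2 was at 21.8, 22.5 and 43.2 CPM in CYT and at 4.26, 3.88 and 4.75 CPM in IL-1βlow + CYT (-2.77 ± 0.29, adjusted p = 3.45e-06). Gbp5 averaged 26.8 ± 13.2 and 4.74 ± 0.431 CPM and Gbp6 30.8 ± 8.95 and 4.43 ± 1.32 CPM. Gbp4 was at most at the counting floor in IL-1βlow + CYT and at least 10.5-fold lower. Gbp1 averaged 3.25 ± 1.04 and 0.636 ± 0.535 CPM, a call that was lost without CYT replicate 2 or 3 or IL-1βlow + CYT replicate 2 (adjusted p between 0.0124 and 0.0160). In contrast, Irgm was at 24.0, 21.2 and 24.6 CPM in CYT and at 43.4, 36.0 and 43.1 CPM in IL-1βlow + CYT (0.81 ± 0.11, adjusted p = 2.79e-05). Irgm2 averaged 34.4 ± 5.19 and 61.5 ± 11.4 CPM (0.83 ± 0.15, adjusted p = 0.000399) and Ifi47 29.3 ± 5.38 and 53.4 ± 8.15 CPM (0.87 ± 0.15, adjusted p = 0.000225). For these 3 genes the groups did not overlap and the preconditioned libraries were the higher ones, under the fold minimum. Igtp averaged 36.1 ± 5.98 and 32.0 ± 4.25 CPM and its libraries overlapped. The list median of -2.34 stood at -0.12 when only genes above a mean of 5 CPM were tested, because Gbp1 and Gbp4 then left the list. Gbp genes are near-identical in part, and reads could be split between them.

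Both families carry the same kind of promoter element, shown here because members with opposite signs share it. The interferon response element core GAAANNGAA, on either strand, is in capitals in a stretch of 60 bases taken around the match from the 250 bases before the start of each gene.
Rsad2: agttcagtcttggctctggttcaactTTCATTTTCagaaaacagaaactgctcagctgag
Gbp2: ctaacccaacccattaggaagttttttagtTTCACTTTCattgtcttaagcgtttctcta
Gbp5: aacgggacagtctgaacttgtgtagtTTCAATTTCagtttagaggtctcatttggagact
Irgm: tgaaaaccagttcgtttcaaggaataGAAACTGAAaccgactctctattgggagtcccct
Irgm2: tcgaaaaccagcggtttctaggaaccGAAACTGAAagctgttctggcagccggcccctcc

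The sequences are from RefSeq, assembly GRCr8: chr6:48788233-48788292 on the minus strand (Rsad2), chr2:234005667-234005726 (Gbp2) and chr2:233910918-233910977 (Gbp5) on the plus strand, chr10:33742579-33742638 on the minus strand (Irgm) and chr10:42889842-42889901 on the plus strand (Irgm2). They were chosen after values and matches were seen. Within the 250 bases before the start, 6.2% of the 10925 tested genes with a promoter sequence held this core, and 8.0% of all 27457 promoters in the table did. Among the GTPases 8 of 9 held it, all 5 that passed lower and 3 of the 4 that did not pass. Among antiviral genes 15 of 22 held it, 8 of the 10 that passed lower and 7 of the 12 that did not pass. Among all passing genes the core was in 9.4% of the higher and 7.4% of the lower promoters. A match is a string of letters and not a measured binding site.

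Antigen presentation differed by class. All 8 tested MHC class II genes had negative log2 fold changes and 7 passed lower, with a median of -1.95. Ciita, the transactivator that switches on MHC class II, was at 31.1, 36.8 and 40.2 CPM in CYT and at 4.56, 5.87 and 6.0 CPM in IL-1βlow + CYT (-2.71 ± 0.22, adjusted p = 3.33e-07). The class II chain RT1-Db1 was at 53.8, 42.3 and 44.5 CPM and at 8.51, 11.1 and 10.6 CPM (-2.21 ± 0.18, adjusted p = 4.19e-07). RT1-Bb averaged 42.5 ± 6.79 and 9.51 ± 2.36 CPM, and RT1-DMb, which helps load peptides, 43.6 ± 4.41 and 6.80 ± 1.86 CPM. Cd74, the invariant chain, was the member that did not pass, at 395 ± 31.1 and 249 ± 7.84 CPM (-0.66 ± 0.11). Untreated cells held 0.121 CPM of Ciita and no count of RT1-DMb. Relative to untreated cells the list median stood at 10.08 for CYT and 8.12 for IL-1βlow + CYT, values that share the untreated libraries.

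Of 19 MHC class I genes 3 passed lower and none higher, with a median of -0.47. With no fold minimum 11 of the 19 were lower, against 19.2% of all genes tested. The class I gene RT1-S3 averaged 183 ± 52.9 CPM in CYT and 49.2 ± 1.81 CPM in IL-1βlow + CYT (-1.89 ± 0.17), the peptide transporter Tap1 196 ± 46.1 and 74.6 ± 10.1 CPM (-1.39 ± 0.15), and the immunoproteasome subunit Psmb8 206 ± 21.9 and 102 ± 2.58 CPM (-1.01 ± 0.10). Psmb8 was at -0.96 without CYT replicate 2 and at -0.99 without IL-1βlow + CYT replicate 3. RT1 genes are near-identical copies, so that their single values are uncertain.

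Chemokines and cytokines moved in both directions. Of 20 tested, 9 passed lower and 3 higher, with a median of -1.03. Cx3cl1, the membrane-bound chemokine fractalkine, was at 150, 279 and 306 CPM in CYT and at 23.5, 34.6 and 32.3 CPM in IL-1βlow + CYT (-3.02 ± 0.25, adjusted p = 4.19e-07). Csf2, which encodes GM-CSF, averaged 2.85 ± 0.364 and 0.157 ± 0.0985 CPM (-4.18 ± 0.46). Its mean in IL-1βlow + CYT was about that of 3 counts per library (0.149 to 0.182 CPM), so the size of its fall is uncertain. Cxcl2, a neutrophil chemokine named for its promoter, averaged 37.8 ± 8.92 and 8.54 ± 1.21 CPM (-2.15 ± 0.19). Ccl5 averaged 1.01 ± 0.266 and 0.0991 ± 0.172 CPM (-3.33 ± 0.82). This low transcript did not pass without CYT replicate 1 or 3 or IL-1βlow + CYT replicate 1 or 2 (adjusted p between 0.0193 and 0.0215) or by DESeq2 (adjusted p = 0.35). The 3 higher genes were Cxcl12, Tnf and Il33, the last an alarmin of the IL-1 family. Tnf averaged 8.0 ± 0.930 CPM in CYT and 17.4 ± 3.31 CPM in IL-1βlow + CYT (1.11 ± 0.19), and was at 0.96 without IL-1βlow + CYT replicate 1. Il33 averaged 1.39 ± 0.175 and 3.08 ± 0.408 CPM (1.16 ± 0.27), with an adjusted p of up to 0.0137 without CYT replicate 1 or 3 or IL-1βlow + CYT replicate 2.

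The promoters of Csf2 and Cxcl2 hold the NF-κB motif GGGNNTTTC, in capitals on either strand, within the 250 bases before the start; 60 bases around the match are shown.
Csf2: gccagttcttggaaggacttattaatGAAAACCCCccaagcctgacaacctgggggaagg
Cxcl2: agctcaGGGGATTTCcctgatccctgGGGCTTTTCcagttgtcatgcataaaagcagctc

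They lie at chr10:38889847-38889906 and chr14:17467276-17467335 on the minus strand of GRCr8. The motif was in 3.8% of promoters of tested genes, in 3.7% of all promoters in the table and in 6 of 16 of the chemokine list, 5 of the 7 that passed lower, 1 of the 6 that did not pass and none of the 3 that passed higher.

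NF-κB feedback regulators and the IL-1 receptor pathway, 28 genes with a median of -0.27, held 6 lower and 1 higher. Tnfaip2 averaged 2.34 ± 0.503 and 0.349 ± 0.268 CPM. Irak3, a kinase-dead inhibitor of IL-1 receptor signalling, averaged 6.90 ± 1.30 and 1.87 ± 0.166 CPM (-1.88 ± 0.20). Irak2, which passes the signal on in the same pathway, averaged 21.6 ± 4.74 and 6.84 ± 0.398 CPM (-1.66 ± 0.17). Tnip2, a partner of the inhibitor A20, averaged 14.3 ± 1.83 and 4.54 ± 0.938 CPM (-1.65 ± 0.17). Irak3, which inhibits the signal, and Irak2, which passes it on, were thus lower together. The higher gene was Bcl3, an atypical IκB protein, at 4.21 ± 1.18 and 8.53 ± 0.454 CPM (1.02 ± 0.21), which was at 0.98 and 0.79 without IL-1βlow + CYT replicate 2 and CYT replicate 3. The receptor Il1r1 was at 142 ± 33.8 CPM in CYT, 262 ± 55.8 CPM in IL-1βlow + CYT and 404 CPM in untreated cells (0.88 ± 0.17, adjusted p = 0.000835), and passed at 1.04 and 1.01 without CYT replicate 3 and IL-1βlow + CYT replicate 2.

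Genes of nitric oxide, arginine and iron handling were split within the pathway, with 4 lower and 1 higher of 17 and a median of 0.04. Nos2, inducible nitric oxide synthase, was at 412, 605 and 688 CPM in CYT and at 33.0, 55.7 and 57.8 CPM in IL-1βlow + CYT. Ass1, which regenerates its substrate arginine, was at 341, 306 and 339 CPM and at 70.4, 62.5 and 79.6 CPM (-2.21 ± 0.13, adjusted p = 2.01e-08). Gch1, the first enzyme in synthesis of its cofactor tetrahydrobiopterin, was the higher one, at 66.0, 55.2 and 57.7 CPM and at 145, 128 and 115 CPM (1.12 ± 0.11, adjusted p = 2.77e-06). Relative to CYT, the transcripts of Nos2 and Ass1 were thus lower, and that of Gch1 higher, in the same libraries. Enzyme protein, arginine and cofactor were not measured here. Lcn2, a siderophore-binding lipocalin, averaged 105 ± 21.9 and 11.0 ± 2.61 CPM, and the ferrireductase Steap3 6.56 ± 1.64 and 1.69 ± 0.306 CPM. Of 10 complement genes, C3 passed at 341 ± 25.4 and 155 ± 29.5 CPM (-1.14 ± 0.13) and C1s at 4.24 ± 1.38 and 1.98 ± 0.123 CPM, and the list median was 0.11. The call of C1s held only when CYT replicate 1 was the library left out, and without CYT replicate 2 or 3 or any IL-1βlow + CYT library its adjusted p was 0.0155 to 0.0452. IL-1βlow alone held 9.19 CPM of C3 against 0.0788 CPM in untreated cells.

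ATF4 raises amino acid uptake and synthesis when translation initiation is inhibited. Of 27 tested members of the list of ATF4 targets in amino acid supply, 26 passed lower and none higher, with a median of -1.74. Not all of these act in amino acid uptake or synthesis, among them Nupr1 and Ppp1r15a. The groups overlapped in none of the 27, whereas 27.6% of all genes tested were lower without overlap. Atf4 itself was at 668, 721 and 708 CPM in CYT and at 169, 204 and 199 CPM in IL-1βlow + CYT, against 169 CPM in untreated cells (-1.87 ± 0.09, adjusted p = 8.96e-09). Chac1, which degrades glutathione, was at 86.1, 100 and 85.0 CPM and at 7.66, 13.0 and 9.81 CPM (-3.15 ± 0.16, adjusted p = 1.03e-08). Nupr1, a small stress-induced nuclear protein, was at 86.2, 90.7 and 72.8 CPM and at 9.91, 9.75 and 10.9 CPM (-3.03 ± 0.12, adjusted p = 1.43e-09). The preconditioned values of Atf4 and Nupr1 lay near the untreated means. Ppp1r15a (GADD34), which restores translation by dephosphorylating eIF2α, averaged 274 ± 39.7 and 37.2 ± 4.0 CPM, and the glycine transporter Slc6a9 105 ± 7.99 and 16.2 ± 2.29 CPM. Trib3, a pseudokinase induced by ATF4, averaged 215 ± 36.8 and 12.3 ± 6.27 CPM. The exception was the glutamine transporter Slc38a2 at 173 ± 17.2 and 127 ± 6.88 CPM (-0.44 ± 0.09, adjusted p = 0.00127). Relative to untreated cells the list median stood at 1.70 for CYT and 0.11 for IL-1βlow + CYT, values that share the untreated libraries.

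Cytosolic aminoacyl-tRNA synthetases charge tRNAs with amino acids. Of 20 genes, 19 had negative log2 fold changes, 9 passed lower and none higher, with a median of -0.91. With no fold minimum 16 were lower, against 19.2% of all genes tested. Sars1, for serine, was at 731, 913 and 821 CPM in CYT and at 178, 221 and 199 CPM in IL-1βlow + CYT (-2.04 ± 0.10, adjusted p = 1.03e-08). Cars1, for cysteine, averaged 212 ± 29.9 and 60.4 ± 10.3 CPM, Mars1, for methionine, 352 ± 10.5 and 129 ± 7.24 CPM, and Iars1, for isoleucine, 209 ± 15.5 and 82.0 ± 3.66 CPM. Toward the other end lay the synthetases for glutamine and histidine, with log2 fold changes of -0.30 for Qars1 and -0.16 for Hars1, and a subunit of that for phenylalanine, Farsa, at 0.16. The other subunit, Farsb, was at -0.57. Mars1 overlaps Ddit3 in the annotation, and reads of overlapping genes cannot be assigned without strand, which is not stated in the sources used here.

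Some promoters of both groups hold the C/EBP-ATF composite element TGATGNAA, shown in capitals on either strand for members described above.
Chac1: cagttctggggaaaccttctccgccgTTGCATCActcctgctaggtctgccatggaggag
Nupr1: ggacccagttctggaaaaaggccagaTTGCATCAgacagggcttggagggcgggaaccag
Mars1: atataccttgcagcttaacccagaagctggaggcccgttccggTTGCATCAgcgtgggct
Iars1: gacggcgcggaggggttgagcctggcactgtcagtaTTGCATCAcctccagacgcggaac

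The windows lie at chr3:126795938-126795997 on the plus strand (Chac1) and at chr1:190645923-190645982, chr7:65023754-65023813 and chr17:15193653-15193712 on the minus strand (Nupr1, Mars1 and Iars1) of GRCr8. The element was in 1.8% of promoters of tested genes, in 3.3% of all promoters in the table, in 2.4% of higher and 4.8% of lower promoters, in 6 of 25 ATF4 targets and in 5 of 17 synthetases. Among the synthetases it was in 4 of the 9 that passed lower and in 1 of the 8 that did not pass.

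Of 29 chaperone and degradation genes of the endoplasmic reticulum, 3 passed lower and 1 higher, with a median of 0.06. That is 10.3% and 3.45%, against 5.92% and 6.54% of all genes tested. Hspa5 (BiP), the main chaperone of the compartment, was at 1003, 1017 and 1087 CPM in CYT and at 899, 855 and 918 CPM in IL-1βlow + CYT, against 1636 CPM in untreated cells (-0.22 ± 0.11, adjusted p = 0.108). Ern1 (IRE1α), a sensor of unfolded proteins, was at 242, 290 and 288 CPM and at 51.0, 63.5 and 59.1 CPM (-2.24 ± 0.10, adjusted p = 5.36e-09). Herpud1, which assists degradation of misfolded proteins, averaged 275 ± 31.1 and 71.7 ± 4.22 CPM (-1.94 ± 0.13). The Hspa5 libraries of the groups did not overlap either, but its fall was far smaller than those of Ern1 and Herpud1 and did not pass. With no fold minimum 8 genes of the list were lower and 5 higher, against 19.2% and 17.1% of all genes tested. The co-chaperone Dnajb9 averaged 22.4 ± 5.47 and 10.9 ± 2.47 CPM (-1.05 ± 0.22) and was at -0.90 and -0.85 without IL-1βlow + CYT replicate 2 and CYT replicate 3. Edem1, which extracts misfolded glycoproteins, averaged 109 ± 9.77 and 222 ± 14.0 CPM (1.03 ± 0.09) and was at 0.98 without CYT replicate 2 or 3. Without replicate 1 or 2 of IL-1βlow + CYT 2 genes of the list passed higher. None of 15 cytosolic heat shock proteins passed, and Hsp90ab1 and Hspa8 had log2 fold changes of -0.16 ± 0.08 and -0.36 ± 0.07.

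Oxidant defence, p53 and cell death genes gave mixed counts. Of 26 NRF2 targets and antioxidant enzymes 5 passed lower and 1 higher, with a median of -0.16. Hmox1, haem oxygenase, averaged 209 ± 35.2 and 40.6 ± 3.52 CPM, the ferritin light chain Ftl1 193 ± 13.2 and 83.8 ± 6.16 CPM, and Osgin1 3.43 ± 1.37 and 0.688 ± 0.251 CPM. The cystine transporter Slc7a11, at 3.53 ± 0.961 and 1.22 ± 0.745 CPM, did not pass without CYT replicate 1 or 2 or IL-1βlow + CYT replicate 1 or 2 (adjusted p 0.0146 to 0.0337). Mitochondrial superoxide dismutase Sod2, at 672 ± 66.5 and 335 ± 44.1 CPM, moved inside the fold minimum, to as little as -0.94, and did not pass without CYT replicate 2 or 3 or IL-1βlow + CYT replicate 1 or 2. The higher gene was the quinone reductase Nqo1, at 5.76 ± 1.94 and 12.03 ± 1.04 CPM (1.07 ± 0.22), which was at 0.80 without CYT replicate 3. The list held 3 lower genes without CYT replicate 2 or without replicate 1 or 2 of IL-1βlow + CYT. Of 18 p53 targets 6 passed lower and none higher, with a median of -0.49. Cdkn1a, the cell cycle inhibitor p21, was at 94.3, 123 and 104 CPM in CYT and at 44.9, 47.0 and 41.6 CPM in IL-1βlow + CYT (-1.26 ± 0.11, adjusted p = 5.46e-07). Phlda3, an Akt repressor, averaged 77.6 ± 12.1 and 24.95 ± 0.879 CPM, the nuclease Aen 148 ± 23.1 and 56.6 ± 1.37 CPM, and the BH3-only gene Bbc3 109 ± 15.0 and 35.5 ± 2.53 CPM.

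Within the BCL2 family and caspases, 22 genes with a median of 0.09, 4 passed lower and 2 higher. The lower ones promote death. Hrk (DP5), a BH3-only protein, was at 32.0, 34.4 and 29.4 CPM in CYT and at 4.56, 6.42 and 6.78 CPM in IL-1βlow + CYT (-2.43 ± 0.18, adjusted p = 1.92e-07). Bmf, another BH3-only gene, averaged 13.7 ± 0.435 and 4.67 ± 0.770 CPM, Bid 72.4 ± 8.79 and 33.6 ± 3.73 CPM, and the inflammatory caspase Casp4 7.54 ± 0.578 and 1.68 ± 0.964 CPM. Bcl2, which blocks apoptosis, was higher at 10.4 ± 0.701 CPM against 4.37 ± 0.766 CPM in CYT (1.25 ± 0.15, adjusted p = 1.29e-05). The effector caspase Casp6 was higher as well, at 5.98 ± 1.38 CPM against 2.97 ± 0.574 CPM (1.01 ± 0.20). This call was not held by RLE size factors (0.99) or DESeq2 (0.99), nor without CYT replicate 2 or 3 or IL-1βlow + CYT replicate 1 (0.81 to 0.98).

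Immediate early genes held lower stress factors and a few higher genes. Of 25 members 6 passed lower and 2 higher, with a median of -0.33. Maff, a small MAF factor, was at 73.8, 117 and 125 CPM in CYT and at 11.3, 11.6 and 13.7 CPM in IL-1βlow + CYT (-3.11 ± 0.19, adjusted p = 3.13e-08). Myc was at 101, 138 and 111 CPM and at 23.1, 18.4 and 22.1 CPM, against 28.0 CPM in untreated cells (-2.46 ± 0.26, adjusted p = 3.41e-06). The AP-1 subunit Fosl2, singled out after its values were seen, averaged 26.2 ± 3.0 and 8.77 ± 1.87 CPM, with untreated and IL-1βlow cells at 23.8 and 27.3 CPM. Its level after preconditioning and challenge was thus the lowest of the 4 groups. The higher genes were Klf2 and Dusp5, a phosphatase of ERK, at 7.55 ± 0.864 and 19.7 ± 2.79 CPM (1.38 ± 0.13).

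Clock genes were lower as a block. The clock is a feedback loop in which BMAL1 and CLOCK activate the PER, CRY, REV-ERB (Nr1d1, Nr1d2), DEC (Bhlhe40, Bhlhe41) and PAR-bZIP genes (Dbp, Tef, Hlf), which in turn act on the loop. All 17 genes had negative log2 fold changes, 13 passed lower and none higher, and the median was -1.39. Nr1d1 was at 180, 252 and 261 CPM in CYT and at 16.5, 19.7 and 19.1 CPM in IL-1βlow + CYT, with an untreated mean of 17.9 CPM (-3.64 ± 0.15, adjusted p = 1.43e-09). Ciart, a repressor of CLOCK and BMAL1, was at 47.7, 71.8 and 62.3 CPM and at 4.80, 7.01 and 7.13 CPM, with an untreated mean of 3.92 CPM (-3.26 ± 0.19, adjusted p = 2.18e-08). Bhlhe40 averaged 291 ± 30.7 and 66.0 ± 11.6 CPM and Bhlhe41 149 ± 22.7 and 41.1 ± 5.54 CPM. The activator Bmal1, at 33.7 ± 6.68 and 12.9 ± 0.441 CPM (-1.39 ± 0.14), and its repressors Per1, at 98.1 ± 16.1 and 41.2 ± 3.12 CPM (-1.25 ± 0.12), and Per2, at 59.8 ± 13.4 and 24.4 ± 1.31 CPM (-1.29 ± 0.14), were lower alike, as was their output gene Dbp, at 232 ± 20.2 and 83.8 ± 4.43 CPM. The 4 that did not pass were Per3 (-0.75 ± 0.16), Npas2 (-0.58 ± 0.18), Cry2 (-0.51 ± 0.12) and Clock (-0.35 ± 0.18), of which only Clock had overlapping groups. Relative to untreated cells the list median stood at 1.25 for CYT and -0.02 for IL-1βlow + CYT, values that share the untreated libraries. The members other than those of the naming rule were named after their values were seen. All libraries received the challenge for 16 h, but the time of day of collection is not given in the sources used here. Nr1d1 overlaps Thra on the annotation.

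**Figure D4:**
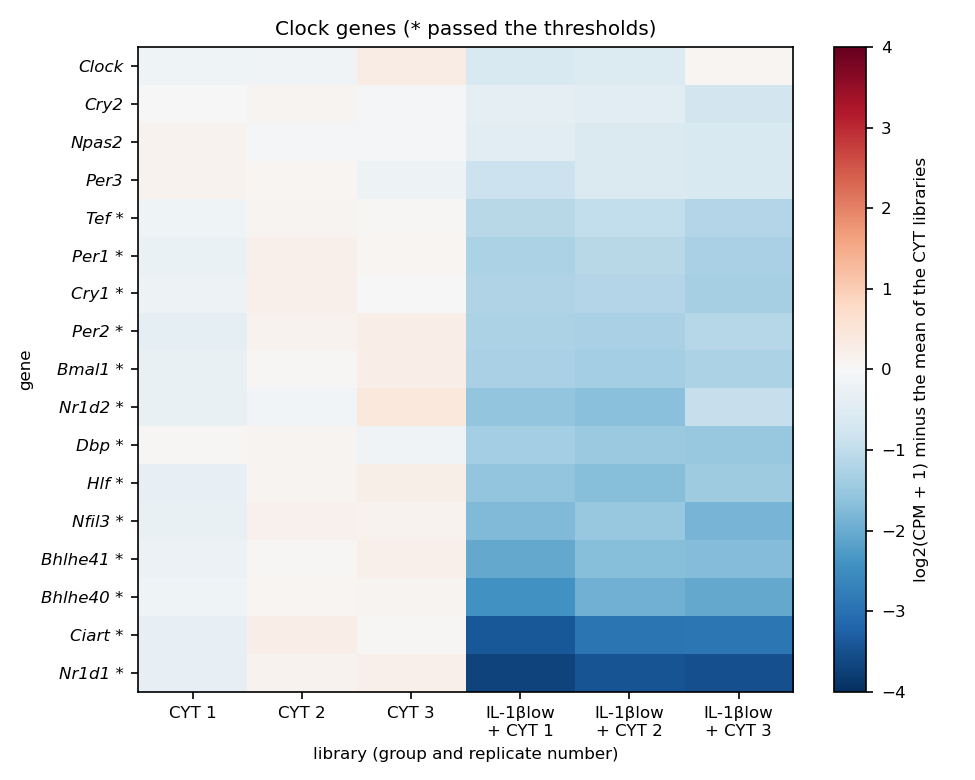
Rows are the 17 clock genes and columns the 6 libraries by group and replicate number; colour gives log2(CPM + 1) minus the mean of the CYT libraries, from blue (lower) to red (higher). The 3 IL-1βlow + CYT columns are blue in all rows but Clock, whose replicate 3 is near 0, and darkest for Nr1d1 and Ciart; stars mark the 13 genes that passed.

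β-cell transcription factors were higher in part. Of 23 islet factors 6 passed higher and none lower, with a median of 0.64. Isl1, a LIM homeobox factor needed for islet maturation, was at 35.2, 24.6 and 21.6 CPM in CYT and at 104, 92.6 and 106 CPM in IL-1βlow + CYT, with 136 CPM in untreated cells (1.90 ± 0.16, adjusted p = 5.62e-07). Mnx1, which keeps β-cells from taking a δ-cell fate, was at 56.6, 43.9 and 42.8 CPM and at 146, 128 and 121 CPM, with 102 CPM in untreated cells (1.46 ± 0.11, adjusted p = 2.61e-07). Rfx6 averaged 45.2 ± 9.13 and 121 ± 9.09 CPM, and Tcf7l2, a Wnt pathway factor, 0.907 ± 0.0614 and 2.54 ± 0.124 CPM. Mnx1 and Rfx6 thus stood above untreated cells, and Isl1 below.

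Of 21 hormone and granule protein genes 4 passed higher and none lower, with a median of 0.39. Pcsk1n, an inhibitor of prohormone convertase, was at 211, 182 and 156 CPM in CYT and at 569, 529 and 400 CPM in IL-1βlow + CYT (1.45 ± 0.14, adjusted p = 1.86e-06). Its target, the convertase Pcsk1, averaged 12.7 ± 1.85 and 51.7 ± 7.15 CPM. The zinc transporter Slc30a8 averaged 469 ± 103 and 990 ± 77.2 CPM (1.08 ± 0.14), and the granule tether Sytl4 179 ± 56.4 and 387 ± 69.1 CPM (1.11 ± 0.19). Without CYT replicate 2 these last genes were at 0.95 and 0.89 and the list held 2 passing genes. Ins1 and Ins2 did not pass, at 0.72 ± 0.14 and 0.45 ± 0.11. Ins2 was at 1269, 1314 and 1302 CPM in CYT and at 2061, 1650 and 1582 CPM in IL-1βlow + CYT, far below 8097 CPM in untreated cells.

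Receptors for hormones and nutrients showed the widest range among islet lists. Of 25 tested 7 passed higher and 4 lower, with a median of 0.34. Receptors for fatty acids were on the higher side. Ffar3, for short chains, averaged 3.07 ± 1.78 CPM in CYT and 16.1 ± 2.43 CPM in IL-1βlow + CYT (2.38 ± 0.28, adjusted p = 9.19e-06), Ffar1, for long chains, 8.08 ± 3.07 and 28.4 ± 4.68 CPM, and Ffar2 9.0 ± 2.0 and 29.8 ± 3.41 CPM. The adrenergic receptor Adra2a, which restrains insulin secretion, was at 11.3, 9.44 and 5.32 CPM and at 49.4, 41.1 and 30.5 CPM (2.22 ± 0.21, adjusted p = 1.47e-06). The oxytocin receptor Oxtr averaged 0.749 ± 0.131 and 4.19 ± 0.859 CPM against 52.9 CPM in untreated cells. On the lower side were the somatostatin receptor Sstr3, at 197 ± 49.2 and 39.8 ± 4.09 CPM (-2.31 ± 0.16, adjusted p = 8.43e-08), and the dopamine receptor Drd2, at 31.3 ± 4.80 and 9.04 ± 2.37 CPM. The muscarinic receptor Chrm3 and the glucagon receptor Gcgr lay near the threshold at -1.05 ± 0.24 and -1.02 ± 0.21. Without IL-1βlow + CYT replicate 3 these latter did not pass, at -0.96 and -0.94, and the list held 2 lower genes. Chrm3 was also lost without IL-1βlow + CYT replicate 2, at an adjusted p of 0.0112, and Gcgr without IL-1βlow + CYT replicate 1 or CYT replicate 2, at -0.90 and -0.85.

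Ion channels and glucose sensing genes, 30 with a median of 0.14, held 4 higher and 4 lower. Slc2a1 (GLUT1), the glucose carrier of most tissues, was at 133, 160 and 164 CPM in CYT and at 39.2, 49.2 and 48.6 CPM in IL-1βlow + CYT (-1.73 ± 0.11, adjusted p = 5.75e-08). The potassium channels Kcnn1 and Kcnk3 averaged 15.5 ± 2.43 and 5.23 ± 0.871 CPM, and 58.0 ± 13.0 and 20.1 ± 1.54 CPM. Among the higher genes, the sodium channel subunit Scn3a averaged 36.7 ± 4.82 and 104 ± 27.6 CPM (1.5 ± 0.16) and Scn9a 0.632 ± 0.175 and 1.93 ± 0.334 CPM (1.59 ± 0.31). Kcnk16 (TALK-1), a potassium channel of β-cells, averaged 1.04 ± 0.646 and 6.69 ± 3.60 CPM (2.68 ± 0.46). Trpm5 averaged 0.633 ± 0.0440 and 1.48 ± 0.319 CPM and did not pass without CYT replicate 1, 2 or 3 or IL-1βlow + CYT replicate 2 (adjusted p 0.0121 to 0.0227). For Kcnn1 the IL-1βlow mean of 6.10 CPM was below the untreated mean of 15.9 CPM, so that both preconditioned groups were low.

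Of 30 exocytosis genes, with a median of 0.22, 2 passed higher and 3 lower. That is 6.67% and 10%, against 6.54% and 5.92% of all genes tested. Cadps, a priming factor of dense-core granules, averaged 32.2 ± 6.87 and 77.8 ± 4.16 CPM (1.27 ± 0.13). The calcium sensors Syt1 and Syt4 averaged 15.4 ± 1.58 and 7.24 ± 2.39 CPM, and 102 ± 16.8 and 48.1 ± 10.7 CPM (-1.09 ± 0.20 for each), and the granule GTPase Rab3a 250 ± 14.4 and 122 ± 10.4 CPM (-1.04 ± 0.08). None of these lower calls was firm. Without IL-1βlow + CYT replicate 1 only 1 of the 3 passed, with Syt1 at -0.94 and Syt4 at -0.99. Syt1 was at -0.97 without IL-1βlow + CYT replicate 2, Syt4 at -0.98 without CYT replicate 3, and Rab3a was just inside the fold minimum without CYT replicate 2 or IL-1βlow + CYT replicate 3.

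Of 23 cholesterol genes 4 passed higher and none lower, with a median of 0.38. Hmgcs1, an early enzyme of the mevalonate pathway, averaged 68.4 ± 18.5 and 159 ± 28.2 CPM (1.22 ± 0.20). The sterol carrier Stard4 averaged 32.1 ± 4.99 and 66.3 ± 9.12 CPM (1.05 ± 0.13), and the isomerase Idi1 9.54 ± 2.48 and 20.6 ± 8.48 CPM (1.10 ± 0.30). The counts for this list moved with single libraries and were 2 without IL-1βlow + CYT replicate 1, CYT replicate 2 or CYT replicate 3. Stard4 was at 0.94 to 0.97 without CYT replicate 1 or 2 or IL-1βlow + CYT replicate 3. Among the fits that left out 1 library, Idi1 passed only in the one without IL-1βlow + CYT replicate 2.

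Among 22 fatty acid and triglyceride genes, with a median of 0.34, 3 passed higher and 1 lower. Scd2, a stearoyl-CoA desaturase, was at 713, 744 and 812 CPM in CYT and at 1561, 1798 and 1730 CPM in IL-1βlow + CYT, with 1543 CPM in untreated cells (1.17 ± 0.13, adjusted p = 4.22e-06). Fasn, fatty acid synthase, was at 291, 304 and 219 CPM and at 680, 688 and 566 CPM (1.25 ± 0.12, adjusted p = 1.43e-06). Elovl6, which elongates its product, averaged 5.35 ± 1.18 and 16.0 ± 3.39 CPM (1.57 ± 0.18). Other enzymes of these steps did not pass, among them Acaca at 0.69, Fads1 at 0.74 and Elovl5 at -0.15. Dgat2, which completes triglycerides, was the lower gene at 44.1 ± 2.48 and 14.0 ± 1.70 CPM (-1.66 ± 0.12, adjusted p = 9.39e-08).

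Central energy metabolism was nearly level at the fold used. None of 31 genes of glycolysis, pyruvate entry and the TCA cycle passed (median -0.03), although 1 did without CYT replicate 1 or IL-1βlow + CYT replicate 3. With no fold minimum 8 were higher and 6 lower, against 17.1% and 19.2% of all genes tested. Pgam1, an abundant glycolytic enzyme, had a log2 fold change of 0.22 ± 0.08. Of 33 nuclear-encoded respiratory chain subunits 1 passed higher, Ndufa4, at 106 ± 29.6 and 235 ± 26.4 CPM (1.14 ± 0.15), which was at 0.96 without CYT replicate 3. Atp5f1a and Atp5f1b had log2 fold changes of 0.10 ± 0.09 and -0.05 ± 0.10, and the list median was 0.16. The mitochondrially encoded ND4 was at 678, 353 and 584 CPM in CYT and at 1716, 1318 and 2217 CPM in IL-1βlow + CYT, with 2179 CPM in untreated cells (1.70 ± 0.33, adjusted p = 0.000688). CYTB averaged 2255 ± 855 and 3792 ± 860 CPM (0.75 ± 0.24, adjusted p = 0.0172), and passed at 1.03 without CYT replicate 1, while COX1 at 11206 ± 2264 and 12662 ± 1715 CPM overlapped. Of these 3 mitochondrial transcripts ND4 was the one that passed.

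All 38 cytosolic ribosomal protein genes had negative log2 fold changes, from -0.02 to -1.06, with a median of -0.36. With no fold minimum 18 were lower and none higher, and 28 had groups that did not overlap. Among all genes tested 19.2% were lower with no fold minimum and 27.6% lower without overlap. Rpl3 averaged 1146 ± 73.2 and 718 ± 56.4 CPM (-0.67 ± 0.08, adjusted p = 1.40e-05), and the elongation factor Eef2 5338 ± 556 and 3548 ± 407 CPM (-0.59 ± 0.11, adjusted p = 0.000356). Rplp0 averaged 1479 ± 174 and 1148 ± 171 CPM and did not reach an adjusted p of 0.01 (0.0167). Rpl10a was the member that passed (-1.06 ± 0.12), and it was at -0.93 and -0.96 without CYT replicate 2 and IL-1βlow + CYT replicate 3. Many ribosomal protein genes have processed pseudogenes, so that counts could be split.

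Genes of cell division were higher in preconditioned cells. All 25 mitosis genes had positive log2 fold changes with a median of 0.91. Of these 10 passed higher and none lower, and 22 were higher with no fold minimum, against 17.1% of all genes tested. Top2a, the topoisomerase of dividing cells, was at 66.1, 55.1 and 60.6 CPM in CYT and at 147, 162 and 215 CPM in IL-1βlow + CYT, with 262 CPM in untreated cells (1.53 ± 0.13, adjusted p = 7.44e-07). The kinesin Kif20a averaged 33.7 ± 6.12 and 82.3 ± 3.32 CPM (1.29 ± 0.12), cyclin A2 (Ccna2) 25.4 ± 3.00 and 59.2 ± 2.02 CPM (1.22 ± 0.10), and the centromeric histone Cenpa 11.9 ± 2.07 and 27.9 ± 3.09 CPM (1.23 ± 0.13). The groups did not overlap in any of these, and the preconditioned means stayed below the untreated means of 90.2, 77.6 and 33.3 CPM. Mki67 stood at the threshold (1.01 ± 0.09), at 0.91 to 0.96 without replicate 3 of either group and at 0.99 by DESeq2 or with RLE size factors. Of 27 DNA replication genes, with a median of 0.59, 3 passed higher and none lower. With no fold minimum 15 were higher, against the same 17.1%. Rrm2, the regulated subunit of ribonucleotide reductase, was at 40.2, 30.7 and 29.9 CPM and at 129, 123 and 113 CPM (1.86 ± 0.12, adjusted p = 4.82e-08). The helicase subunit Mcm7 (1.13 ± 0.13) and the sliding clamp Pcna (1.03 ± 0.08) were at 0.98 and 0.95 without CYT replicate 3, and then Rrm2 alone passed.

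Mitotic promoters often hold the core of the cell cycle homology region TTTGAA, which binds the DREAM and MuvB complexes. It is in capitals, on either strand, for members that passed.
Top2a: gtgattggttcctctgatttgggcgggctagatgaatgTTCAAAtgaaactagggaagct
Cenpa: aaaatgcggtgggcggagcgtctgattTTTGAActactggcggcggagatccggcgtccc

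The windows lie at chr10:84473094-84473153 and chr6:31431636-31431695 on the minus strand of GRCr8. The core was in 10.1% of promoters of tested genes, in 16.0% of all promoters in the table, in 15.4% of higher and 6.3% of lower promoters, and in 10 of 21 mitosis promoters, 5 of the 9 that passed and 5 of the 12 that did not. The CCAAT box was in 85.7% of mitosis promoters and in 35.6% of promoters of tested genes. Short cores occur often, and the median GC content of the windows was 57.2% for higher and 60.4% for lower genes.

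**Figure D5:**
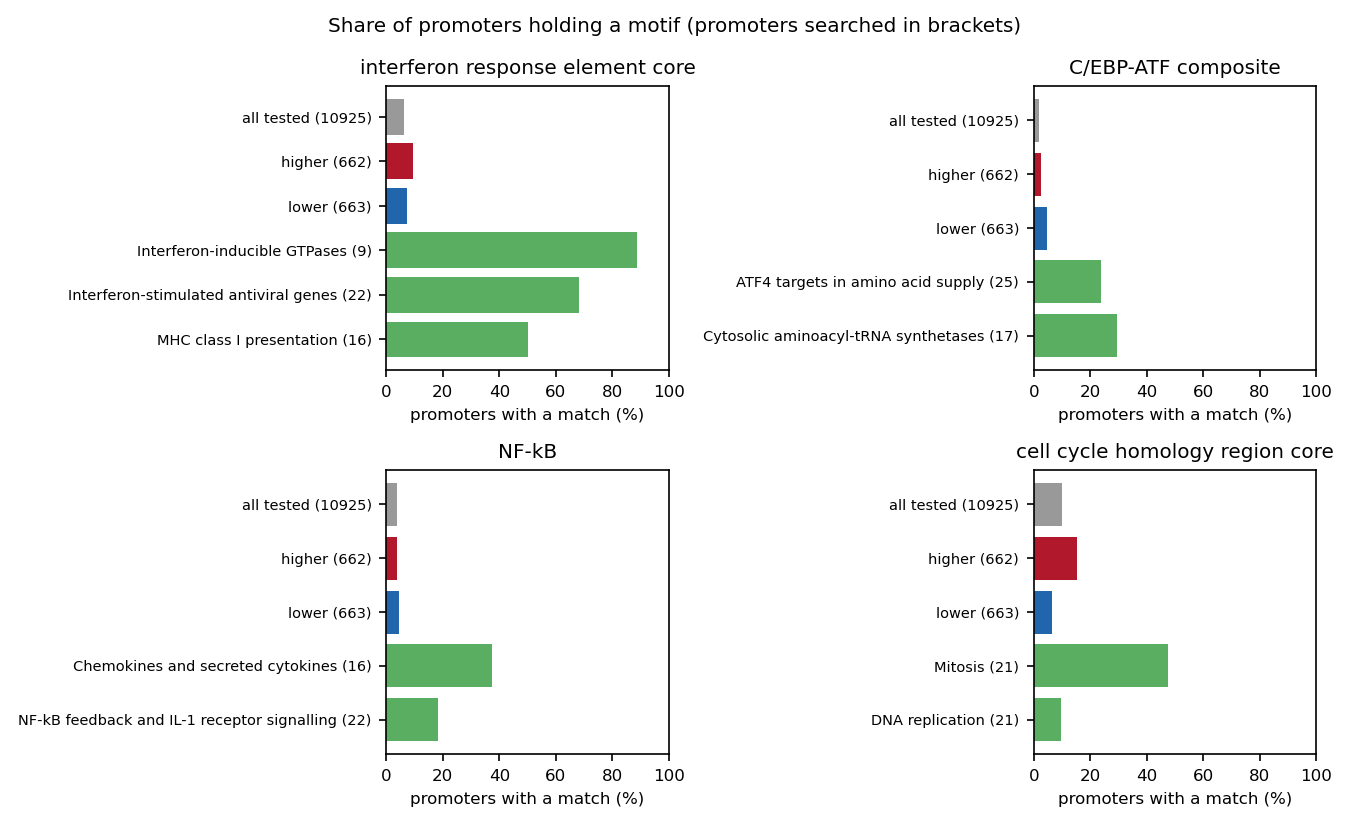
Bars give the percent of promoters (250 bases before the start, either strand) that hold each of 4 motifs, for all tested genes (grey), genes that passed higher (red) and lower (blue), and gene lists (green), with the number of promoters searched in brackets. The interferon core stands at 88.9% for the GTPases against 6.2% for all tested genes, and the C/EBP-ATF element at 29.4% for the synthetases against 1.8%.

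Guidance and adhesion genes, 27 with a median of 0.35, held 5 higher and 3 lower. Nrp1, a semaphorin and VEGF co-receptor, was at 30.5, 29.4 and 32.3 CPM in CYT and at 76.4, 71.1 and 84.7 CPM in IL-1βlow + CYT (1.33 ± 0.12, adjusted p = 9.55e-07), whereas its relative Nrp2 averaged 53.8 ± 9.92 and 21.5 ± 1.92 CPM (-1.32 ± 0.15, adjusted p = 7.69e-06). The ligand Slit2 averaged 5.30 ± 0.695 and 14.4 ± 2.57 CPM (1.44 ± 0.16), whereas its receptor Robo1 averaged 45.0 ± 4.41 and 17.5 ± 0.711 CPM (-1.36 ± 0.14). Another Slit receptor, Robo2, did not pass, with a log2 fold change of 0.56. The microtubule protein Dcx averaged 40.4 ± 8.23 and 133 ± 48.1 CPM (1.72 ± 0.22), and N-cadherin (Cdh2) 62.8 ± 3.87 and 155 ± 10.6 CPM (1.30 ± 0.09). Stmn2 was at 1.09 ± 0.12, and at 0.99 and 0.97 without IL-1βlow + CYT replicate 1 and CYT replicate 3. The semaphorin receptor Plxna2 averaged 28.1 ± 3.02 and 13.0 ± 1.31 CPM (-1.12 ± 0.13).

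Growth factor and Notch genes were lower where they passed, with 1 exception. Of 31 genes, with a median of -0.32, 5 passed lower and 1 higher. With replicate number as a block 2 passed higher. The Notch ligand Jag1 was at 7.17, 15.9 and 19.1 CPM in CYT and at 1.34, 2.04 and 2.26 CPM in IL-1βlow + CYT (-2.89 ± 0.34, adjusted p = 8.53e-06). Its receptor Notch2 was at 98.8, 142 and 137 CPM and at 20.3, 30.8 and 24.5 CPM (-2.32 ± 0.16, adjusted p = 6.61e-08). Ligand and receptor were lower in the same libraries, and replicate 1 was the lowest of each group. Tgfb1 averaged 9.57 ± 0.288 and 3.14 ± 0.479 CPM, and Id2, an inhibitor of differentiation factors, 59.8 ± 13.6 and 25.1 ± 2.54 CPM. Egfr, at -1.07 ± 0.23, was at -0.98 and -0.86 without IL-1βlow + CYT replicate 1 and CYT replicate 3. The higher gene was Sox4, a SOX factor of endocrine development, at 149 ± 14.4 and 325 ± 17.5 CPM with 148 CPM in untreated cells (1.12 ± 0.12).

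In the matrix and integrin list, 19 genes with a median of -0.09, 2 passed lower and 1 higher. That is 10.5% and 5.26%, against 5.92% and 6.54% of all genes tested. Itga5, the fibronectin receptor subunit, averaged 11.5 ± 2.13 and 4.02 ± 0.612 CPM (-1.5 ± 0.19), and Plat, tissue plasminogen activator, 17.5 ± 4.86 and 7.66 ± 0.700 CPM (-1.19 ± 0.23). Itga1 was below 1 CPM in all 6 libraries and did not pass without CYT replicate 2 or 3 or IL-1βlow + CYT replicate 1 or 3 (adjusted p 0.0131 to 0.0243). The number of higher genes in the list was 2 without replicate 2 of either group, and 0 without CYT replicate 3, without IL-1βlow + CYT replicate 1 or with the 6 libraries alone. Of 34 autophagy and lysosome genes, with a median of -0.14, 3 passed lower, which is 8.82% against 5.92% of all genes tested. Sqstm1 (p62), a cargo receptor, was at 2268, 2515 and 2361 CPM in CYT and at 896, 974 and 810 CPM in IL-1βlow + CYT, with 657 CPM in untreated cells (-1.41 ± 0.09, adjusted p = 4.92e-08). Optn averaged 135 ± 20.9 and 58.2 ± 16.3 CPM (-1.21 ± 0.17), and Gabarapl1 345 ± 15.1 and 168 ± 13.9 CPM (-1.04 ± 0.08, and -0.99 without IL-1βlow + CYT replicate 3).

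The order of levels after preconditioning and challenge was not always between those of untreated and challenged cells. The following genes were singled out after their values were seen. Tmem176b was at 1.46 CPM in untreated cells, 20.7 CPM with IL-1βlow and 31.0 ± 5.39 CPM with CYT, and reached 145, 142 and 113 CPM in IL-1βlow + CYT (2.11 ± 0.15 against CYT, adjusted p = 1.22e-07). Its neighbour Tmem176a, an ion channel gene of the same family that overlaps it, was at 0.854, 12.8, 24.1 and 81.3 CPM in the same order. Rtbdn, a riboflavin-binding protein, was at 2.02, 15.6, 10.6 and 60.4 CPM. For these 3 genes either cytokine exposure alone gave an intermediate level and both in sequence the highest. Kcnj2 (Kir2.1), an inward rectifier potassium channel, was at 47.2 CPM in untreated cells, 75.0 CPM with IL-1βlow and 56.0 ± 7.46 CPM with CYT, and at 191, 178 and 222 CPM in IL-1βlow + CYT (1.82 ± 0.12 against CYT, adjusted p = 5.85e-08). Calb1, the calcium buffer calbindin, was at 10.1, 12.5, 11.4 and 39.1 CPM, and Glb1l2, related to β-galactosidase, at 93.9, 122, 118 and 290 CPM. In the opposite direction Cdh23, an atypical cadherin, was at 68.6, 42.4, 21.3 and 8.39 CPM, lowest after preconditioning and challenge (-1.33 ± 0.20 against CYT, adjusted p = 8.03e-05).

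By absolute difference in CPM the largest shifts between the groups were in Rn45s, Ins1, COX1, Sqstm1, Chgb, CYTB, Eef2, Chga, Rn28s and ND4. Of these only Sqstm1 and ND4 passed. Ins1 averaged 7197 ± 691 and 11822 ± 1594 CPM and the granins Chga and Chgb 3703 ± 352 and 5080 ± 571 CPM, and 5234 ± 915 and 6784 ± 976 CPM. Rn45s, at 89674 ± 9825 and 104427 ± 5113 CPM, had an adjusted p of 0.281.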

How the data were processed

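Poly(A) RNA of 12 INS-1E libraries (TruSeq) was counted per gene by the authors, and the deposited table holds these raw counts. Per the labels and the study's methods, reads were checked with FastQC, trimmed with rfastp, aligned with Rsubread to mRatBN7.2 and counted with featureCounts. The strand setting is not given in the sources used here.

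Groups came from the sample titles. Genes above 1 CPM in at least 2 of 12 libraries were kept. edgeR 4.0.16 (R 4.3.3, TMM, quasi-likelihood test, Benjamini-Hochberg adjustment) was fitted on all 12 libraries and the contrast IL-1βlow + CYT against CYT taken, with thresholds of 0.01 on the adjusted p and 1 on the size of the log2 fold change. The study's test, edgeR's exact test, was an alternative beside DESeq2 1.42.0 and the others given under the processing section. Printed CPM are TMM-normalized, and a group with at most 3 counts in each library gave a bound. Mean ± SD are over 3 libraries. Libraries held 16648591 to 20246806 counts. In data simulated from this comparison, 200 of 200 genes (100%) changed by 1.5 on the log2 scale among 14324 were recovered and 2 unchanged genes were called. The changed genes were drawn only from those above a mean of 4 CPM, and the libraries were simulated as independent. Recovery of genes with lower counts or smaller changes was not tested.

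Same-numbered replicates deviated together for numbers 2 and 3 (correlations of deviations 0.475 and 0.453). For number 1 the value was 0.116, below the 0.192 of CYT replicate 2 with IL-1βlow + CYT replicate 1. The main fit used group means only and did not pair the replicates. A fit with the labels' biological replicate numbers as pairs was an alternative. The comparison and the gene lists were chosen with earlier results of these data known. Named genes were the 10 largest rises and falls above a mean of 4 CPM without overlap and with a full symbol, up to 4 passing members of each list (with fewer than 2, the 2 most abundant), the 10 largest differences in CPM, and a short set that includes Ins1, Ins2, Irf1, Atf4, Myc, Cdkn1a, Hspa5 and Mki67; others were named after their values were seen. Some genes of this rule are not reported here. Promoters came from RefSeq (GRCr8), matched by symbol for 10925 of 14324 genes; motifs of different names may overlap. Many genes overlap others in the annotation, and their values are uncertain without strand.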

Additional observations from a re-analysis of the deposited data

Results flagged for a closer look

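The challenge changed 1530 genes differently in preconditioned and unconditioned cells, by a test of the difference itself (the interaction of IL-1βlow and CYT over all 4 groups, edgeR's quasi-likelihood test, adjusted p under 0.01 and absolute log2 above 1), which is 10.7% of the genes tested. The interaction shares the CYT and IL-1βlow + CYT libraries with the comparison reported above.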

How the results depend on the processing

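The count of 1785 passing genes (937 higher, 848 lower) was between 1638 and 2034 with RLE size factors, DESeq2, edgeR's exact test, no filter, Rn45s left out, the 6 libraries alone or the replicate block. It moved to 1145 (630 higher, 515 lower) with genes above a mean of 5 CPM only, where fewer genes were tested, to 7267 (3619 higher, 3648 lower) at an adjusted p under 0.05 with no fold minimum, and to 457 (177 higher, 280 lower) when glmTreat tested against the fold minimum itself. Leaving out 1 library gave 1541 (without CYT replicate 3) to 1940 (without CYT replicate 1), with 722 to 963 higher and 765 to 977 lower. With the replicate block, the paired fit, 1870 genes passed, 1003 higher and 867 lower, 1772 of them shared with the unpaired fit, and no named gene changed its call. The interaction count was 1275 to 1708 with 1 library left out and 1263 to 1853 under the other settings. It was not run for DESeq2 and glmTreat, and the exact test and the 6 libraries cannot give it.

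Among the values for named genes under alternatives other than leaving out a library, 1568 kept direction and call, 22 lost the call, 1 gained it and 1 reversed: Atp5f1b, near 0, at 0.0068 with genes above a mean of 5 CPM. With 1 library left out 1122 kept both, 82 lost the call, 6 gained it and 2 reversed, both of them Atp5f1b, which ranged from -0.12 to 0.047. List medians near 0 reversed for complement (-0.30 above a mean of 5 CPM), matrix and integrins (without CYT replicate 1, over a range of -0.11 to 0.040 with 1 library left out) and nitric oxide, arginine and iron (without replicate 2 of CYT or of IL-1βlow + CYT, over -0.040 to 0.097). RLE scaling moved the median of all genes by -0.019. The cause of these changes was not tested.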
